A study of Mus musculus with 2 samples.

Results

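The cells described here are mouse splenic natural killer (NK) cells that carried transcripts of Klra8, the gene of the activating receptor Ly49H, set against NK cells in which no Klra8 transcript was counted. A barcode was taken as an NK cell when it held 500 to 6000 genes, at most 10% mitochondrial counts and exactly 1 of 3 lipid tags over its cutoff, with UMIs of at least 2 of Ncr1, Klrb1c and Klre1 and none of Trac or Cd79a. A UMI, or unique molecular identifier, stands for 1 captured transcript. Each cell was thinned at random to 2500 UMIs, and cells with at least 2 Klra8 UMIs were called Klra8-positive and cells with 0 Klra8-negative. Of 16384 barcodes in the matrix, 7950 passed the NK gate with enough UMIs to thin. Of these 4438 cells (55.8%) were Klra8-positive, 2733 (34.4%) were Klra8-negative, and 779 (9.80%) held exactly 1 Klra8 UMI and were left out of the comparison. Klra8 counts chose the members, so the Klra8 values are a description without a test.

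The study prepared NK cells of wild-type mice by removing other spleen cells with magnetic beads, and sequenced 3′ transcript ends of single cells on the 10x Genomics platform. Cells of different mice were marked with the 3 lipid tags and run as 1 library, and a second sample was not analysed here. Both classes are therefore untreated wild-type spleen cells, and the labels give neither the age, sex or strain of the mice nor the mouse that each tag marks. Each tag gave 1 sum of counts for the Klra8-positive and 1 for the Klra8-negative cells, so every test below compares 3 pairs of sums. The edgeR p-values weigh the difference between classes within a tag against its spread over the 3 tags, which may be technical. That spread was estimated with information shared over all genes, so a small p-value does not rest on the 3 pairs alone. The 3 tags held 1432, 1743 and 1263 Klra8-positive cells, against 803, 993 and 937 Klra8-negative cells.

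Ly49 receptors are lectin-like proteins that mouse NK cells display in mixed combinations, each cell switching on its own subset of the Klra genes. Most bind MHC class I and inhibit the cell, whereas Ly49H and its close relative Ly49D, encoded by Klra4, are activating and signal through the adaptors DAP12 (Tyrobp) and DAP10 (Hcst). Ly49H is best known for recognising a cytomegalovirus protein on infected cells, upon which Ly49H-bearing NK cells expand and persist as memory-like cells.

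Klra8 (ENSMUSG00000089727) is a protein-coding gene on the minus strand of chromosome 6, at chr6:130115226-130129898 of mm10, inside the Klra gene cluster. Klra4 (ENSMUSG00000079852) lies in the same cluster at chr6:130043731-130067271 on the same strand. The 250 bases before each annotated start are shown because Klra4 is the gene that moved most with Klra8 among the Ly49 receptors, and because their promoters were the most alike of the 10 set against that of Klra8. The sequences come from RefSeq's GRCm38.p6 table, read 5′ to 3′ on the minus strand, at chr6:130129899-130130148 for Klra8 and chr6:130067272-130067521 for Klra4. Capitals mark the bases that differ between the pair or stand opposite a gap in their alignment.
Klra8: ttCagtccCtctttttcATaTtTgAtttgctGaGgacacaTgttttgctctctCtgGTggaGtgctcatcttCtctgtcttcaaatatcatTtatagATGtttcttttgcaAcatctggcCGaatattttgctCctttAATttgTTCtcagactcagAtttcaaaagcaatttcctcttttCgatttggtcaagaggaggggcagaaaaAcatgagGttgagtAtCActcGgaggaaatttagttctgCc
Klra4: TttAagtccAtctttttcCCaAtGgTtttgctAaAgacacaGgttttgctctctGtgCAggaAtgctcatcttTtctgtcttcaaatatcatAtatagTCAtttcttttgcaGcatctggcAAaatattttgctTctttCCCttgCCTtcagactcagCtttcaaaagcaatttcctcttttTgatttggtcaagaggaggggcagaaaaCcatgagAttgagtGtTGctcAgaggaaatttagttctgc
The pair was identical at 212 of 251 alignment columns (84.5%), with 37 mismatches and 2 gap columns. The promoter of Klra17 followed with 77.4% identity, then those of Klra5, Klra2 and Klra6 with 69.1%, 68.8% and 60.7%, and those of Klra9, Klra10, Klra7, Klra3 and Klra1 had between 43.3% and 47.8%, which describes the annotated starts and not the genes' regulation. The annotated start of Klra3 did not match a GENCODE transcript start.

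Sequence likeness also bears on the counts, since reads of a 3′ end shared by several genes cannot be assigned with certainty. Of the 341 windows of 60 bases in the last 400 bases of the Klra8 transcript, 28 (8.21%) were found exactly in Klra9 and 14 (4.11%) in Klra3, and none in Klra4, Klra7, Klra1 or the other Klra genes. None of 311 windows of 90 bases was found in another Klra gene. Pseudogenes of the cluster were not searched, and windows that the other Klra genes share among themselves were not examined. Values of the Klra genes are therefore what the authors' counting assigned, and Klra9 and Klra3 were the genes that shared windows of 60 bases with Klra8.

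In CPM, the count scaled to the same total in every sum, Klra8 reached 2301, 2369 and 2394 CPM in the Klra8-positive sums of tags 1, 2 and 3, against 69.8, 65.2 and 41.5 CPM in the Klra8-negative sums. These sums include the UMIs by which the classes were chosen. The UMIs that thinning had put aside were not used to call the classes. In these UMIs Klra8 stood at 2033, 2166.2 and 2185 CPM in Klra8-positive cells and at 130.02, 114 and 72.0 CPM in Klra8-negative cells. B cells of the same library, which do not make Ly49H, were barcodes with UMIs of at least 3 of Cd79a, Cd79b, Ms4a1 and Ebf1. Barcodes with a UMI of Ncr1, Klrb1c, Klre1 or Trac were left out of them, which may lower their background of NK cell transcripts. These B cells held 34.6, 51.1 and 26.7 CPM in their left-over UMIs. The Klra8-negative class kept a level above that of these B cells in every tag. Just inside the threshold, cells with exactly 2 Klra8 UMIs held 953, 1115 and 1171 CPM of Klra8 in left-over UMIs, and just outside it, cells with 1 UMI held 661, 554 and 430.5 CPM.

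**Figure D1:**
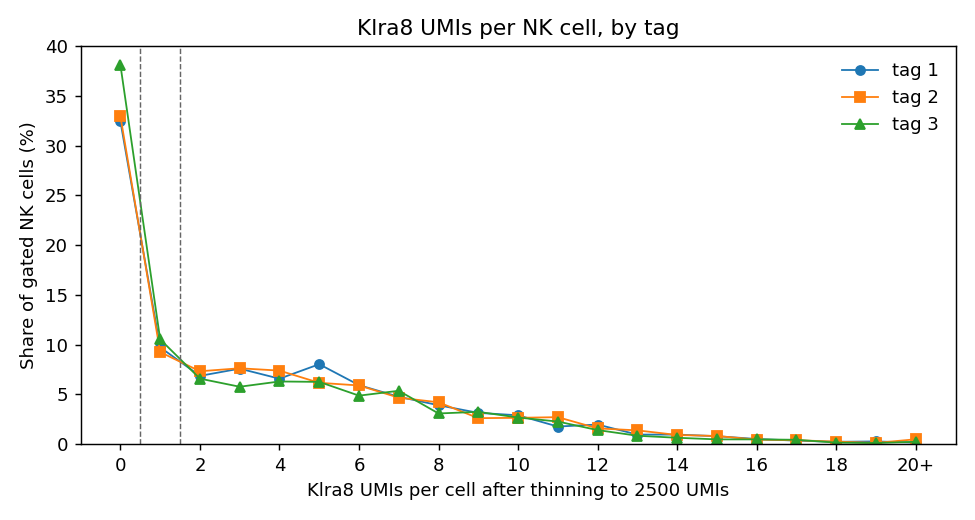
Share of gated NK cells (%, y axis) by the number of Klra8 UMIs among 2500 (x axis), 1 line per tag, where the dashed lines part the cells with 0, 1 and at least 2 UMIs. Cells with 0 made up 32.4%, 32.9% and 38.1% of tags 1, 2 and 3, and the remainder spread up to 32 UMIs each number from 2 to 5 holding between 5.77% and 8.04% of a tag's cells.

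At least 1 Klra8 UMI was seen in 65.5% ± 3.1 of NK cells (SD, n = 3 tags), and at least 2 in 55.7% ± 3.7, with tag 3 the lowest at 51.4%, against 57.8% in each of tags 1 and 2. B cells give a background for such shares, and its source, such as free RNA or barcodes holding several cells, was not tested. Of 401 B cells, 36 held a Klra8 UMI (8.98%, exact binomial 95% interval 6.37% to 12.2%, counting error only) but only 5 held at least 2 (1.25%, interval 0.406% to 2.89%). The median depth was 4160 UMIs in Klra8-positive cells, 4602 in Klra8-negative cells and 3945 in B cells before thinning.

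Other facts of the cells that differed between the classes bear on everything below. The summed level of 6 markers of group 1 innate lymphoid cells (ILC1), tissue-resident relatives of NK cells, was 116 to 130 CPM in Klra8-positive and 431 to 494 CPM in Klra8-negative sums. At least 1 UMI of 5 of them (Tmem176a, Tmem176b, Itga1, Cxcr6 and Il7r) was counted in 9.85%, 9.52% and 11.96% of Klra8-positive cells, against 29.4%, 29.9% and 36.2% of Klra8-negative cells, in unthinned counts. The same measure gave 7.48% in the B cells (exact binomial interval 5.10% to 10.5%, counting error only). Klra8-positive shares of tags 1 and 2 lay within this interval, and that of tag 3 and all Klra8-negative shares lay above it. How many of the cells with a marker UMI were ILC1-like was not tested. Summed dendritic cell markers (8 genes) reached 411 to 493 CPM in Klra8-positive and 1013 to 1710 CPM in Klra8-negative sums, and erythroid markers (6 genes) 203 to 228 CPM in Klra8-positive and 337 to 905 CPM in Klra8-negative sums. T cell markers (9 genes) reached 227 to 280 CPM in Klra8-positive and 325 to 369 CPM in Klra8-negative sums. B cell markers (7 genes) overlapped, at 96.3 to 114 CPM in Klra8-positive and 94.3 to 107 CPM in Klra8-negative sums. Neutrophil and basophil markers (6 genes) summed to 5.36, 3.80 and 11.7 CPM in the Klra8-positive sums of tags 1, 2 and 3, against 3.46, 81.0 and 223 CPM in the Klra8-negative sums, with Mcpt8 and Ms4a2 at 0 in both. Monocyte and macrophage markers (7 genes) reached 55.8 to 91.1 CPM in Klra8-positive and 118 to 179 CPM in Klra8-negative sums, platelet markers (4 genes) 11.7 to 31.4 CPM in Klra8-positive and 47.0 to 102 CPM in Klra8-negative sums, and progenitor markers (4 genes) 57.2 to 79.9 CPM in Klra8-positive and 83.9 to 116 CPM in Klra8-negative sums. Stromal and endothelial markers (5 genes) overlapped, at 53.2 to 79.2 CPM in Klra8-positive and 75.6 to 304 CPM in Klra8-negative sums, and plasma cell markers (5 genes) were higher in Klra8-positive sums, at 119 to 285 CPM, against 115 to 118 CPM in Klra8-negative sums. NK markers outside the gate (7 genes) summed to 16713 to 18033 CPM in Klra8-positive and 11060 to 14662 CPM in Klra8-negative cells. Results are therefore also given for the 6462 gated cells without an ILC1 marker UMI, a choice made after seeing the data. Of these, 621 held 1 Klra8 UMI and stayed out of the comparison. Tags 1, 2 and 3 then held 1291, 1577 and 1112 Klra8-positive and 567, 696 and 598 Klra8-negative cells. In these cells 5 of the 6 ILC1 markers are at 0 by construction.

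With edgeR's quasi-likelihood test and the tag as block, 690 genes were higher in Klra8-positive cells and 1045 were lower at an adjusted p of at most 0.05, which is 5.85% and 8.87% of 11787 genes tested. The median log2 fold over all genes tested was 0.01. Without cells that held an ILC1 marker, 62 genes were higher and 136 lower, or 0.565% and 1.24% of 10981 genes, and 61 and 126 of them were also called with all cells. Other-lineage cells were those with a UMI of another lineage's marker that was seen in fewer than 5% of gated cells. Commoner markers, such as Cd74, H2-Ab1, Cd3d, Trbc2, Ighm and Car2, were not used, so cells with those alone stayed in. Leaving out other-lineage cells gave 462 higher and 662 lower genes. Of 93 named genes that had passed, 81 held their calls, 10 lost them and 2 turned. Leaving out tag 2 gave 373 higher genes. In sums over cells, more cells carrying a transcript and more of it per cell cannot be told apart.

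Fewer cells entered the fit without ILC1-marker cells, and the folds of the genes first called were smaller in it. The median log2 fold of the higher genes was 0.21 without those cells, against 0.32 with them, and that of the lower genes was -0.47 without them, against -0.89 with them.

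The other Ly49 receptors stood higher with Klra8. Besides Klra8, 8 of the list's 12 genes passed the low count filter, and of these 6 were higher and none lower, with a median log2 fold of 0.61. Klra4 had the largest log2 fold and Klra10 the next, and the genes of the inhibitory receptors Ly49G (Klra7), Ly49I (Klra9), Ly49C (Klra3) and Ly49A (Klra1) followed with log2 folds between 0.54 and 0.65. In cells without ILC1 markers 2 of 8 were higher, Klra4 and Klra10, and the median was 0.27.

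Klra4, the gene of the activating receptor Ly49D, stood at 1752, 1828 and 1912 CPM in Klra8-positive and at 903, 848 and 843 CPM in Klra8-negative cells. The classes did not overlap, and the log2 fold was 1.08 (SE 0.07, adjusted p = 8.77e-08, edgeR), or 0.65 (SE 0.08, adjusted p = 0.000535) without ILC1-marker cells. A Klra4 UMI was found in 73.1%, 72.7% and 70.6% of Klra8-positive cells, against 44.3%, 40.3% and 41.3% of Klra8-negative cells, a difference of 30.2 percentage points (SD 2.0 over 3 tags). The exact sign-flip permutation test over 3 tags cannot go below 0.25, the value it gave. The share was 54.2% ± 1.4 in cells with 1 Klra8 UMI. It was 8.98% in the B cells, a background that their choice without UMIs of the NK gate genes may lower.

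Klra10, a further gene of the cluster, was sparse, with 28.8, 38.4 and 33.9 CPM in Klra8-positive and 16.4, 20.1 and 15.4 CPM in Klra8-negative cells. Its log2 fold was 0.97 (SE 0.11, adjusted p = 3.55e-05) and 0.55 (SE 0.13, adjusted p = 0.0390) without ILC1-marker cells. The Klra8-positive sums all lay above the Klra8-negative sums.

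Klra7, which encodes an inhibitory receptor, had 585, 732 and 737 CPM in Klra8-positive and 427, 505 and 376 CPM in Klra8-negative cells, a log2 fold of 0.65 (SE 0.09, adjusted p = 0.00134). Klra9 had 561, 463 and 642 CPM in Klra8-positive and 409, 348 and 358 CPM in Klra8-negative cells, a log2 fold of 0.57 (SE 0.08, adjusted p = 0.000361). Neither pair of classes overlapped, though the Klra9 levels of tag 2 were lower than those of tag 1 and tag 3 in both. Klra1 and Klra3 had log2 folds of 0.56 (SE 0.06, adjusted p = 2.82e-05) and 0.54 (SE 0.07, adjusted p = 0.000284). Without ILC1-marker cells the log2 folds of Klra7, Klra9, Klra1 and Klra3 were 0.29, 0.26, 0.26 and 0.26, with adjusted p between 0.0914 and 0.206, so these 4 calls ended.

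Klra6 and Klra5 did not pass. Klra6 had 23.7, 36.7 and 27.3 CPM in Klra8-positive and 24.7, 15.3 and 11.95 CPM in Klra8-negative cells, overlapping through tag 1, with a log2 fold of 0.80 (SE 0.34, adjusted p = 0.260). Leaving out tag 1 gave 1.24 and a call. Klra5 had a log2 fold of 0.31 (SE 0.33, adjusted p = 0.628), and Klra2 and Klra17 were too low to be tested, with a UMI in fewer than 1% of cells of either class.

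Counted per cell, Klra8-positive cells held UMIs of 2.46 ± 0.013 other Ly49 genes and Klra8-negative cells of 1.70 ± 0.065 (mean ± SD of 3 tags). At least 3 other Ly49 genes were seen in 47.7% ± 0.5 of Klra8-positive and 26.9% ± 1.8 of Klra8-negative cells. No other Ly49 gene was seen in 1.89%, 2.58% and 1.58% of Klra8-positive cells, against 19.9%, 21.9% and 25.2% of Klra8-negative cells. Without ILC1-marker cells the last shares were 1.71% ± 0.67 and 9.59% ± 0.40, so the gap narrowed to 7.88 percentage points, against 20.3 with all cells.

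**Figure D2:**
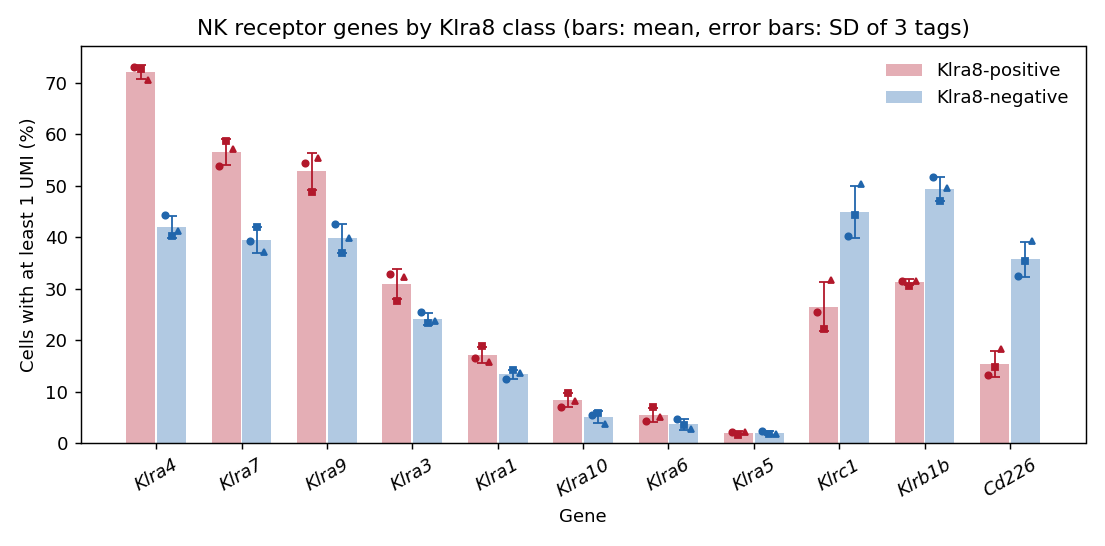
Share of cells with at least 1 UMI of each receptor gene after thinning (%, y axis) in Klra8-positive (red, left) and Klra8-negative cells (blue, right), with bars for the mean and error bars for the SD of 3 tags, shown as a circle, square and triangle for tags 1, 2 and 3. Klra4, Klra7 and Klra9 shares were higher in every Klra8-positive sum, and Klrc1, Klrb1b and Cd226 shares were lower.

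Seen from the other receptors, 68.6% ± 2.7 of cells with at least 2 Klra4 UMIs were Klra8-positive, against 38.8% ± 2.8 of cells with 0 (mean ± SD of 3 tags). For Klra7 the shares were 63.0% ± 2.0 and 48.4% ± 4.7. For Klrc1, the gene of the inhibitory receptor NKG2A, the order was opposite, with 38.6% ± 3.7 of cells with at least 2 UMIs and 62.3% ± 2.9 of cells with 0 being Klra8-positive. Among cells with both Klra4 and no Klrc1 the share was 71.0% ± 2.1, and among cells with Klrc1 and no Klra4 it was 29.4% ± 1.9. These shares restate the same counts and were not tested.

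Of the NKG2, CD94 and KLRE/KLRI group, 5 of 8 genes tested were higher and 2 lower, with a median log2 fold of 0.27. The lower ones were Klrc1 and Klri1. NKG2A, the product of Klrc1, pairs with CD94 and inhibits NK cells that meet the nonclassical MHC molecule Qa-1. Klrc1 stood at 169.8, 143 and 219 CPM in Klra8-positive and 293, 308 and 327 CPM in Klra8-negative cells, a log2 fold of -0.83 (SE 0.08, adjusted p = 0.000131) that was -0.67 (SE 0.10, adjusted p = 0.0105) without ILC1-marker cells. A Klrc1 UMI was found in 25.6%, 22.3% and 31.7% of Klra8-positive cells, against 40.3%, 44.3% and 50.4% of Klra8-negative cells. The classes did not overlap on either measure, and tag 3 was highest in both.

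The neighbours Klrc2 and Klrc3, which encode NKG2C and NKG2E, rose by 0.35 (SE 0.06, adjusted p = 0.00182) and 0.49 (SE 0.10, adjusted p = 0.00854) on the log2 scale, opposite to Klrc1. These genes are close copies of each other, so the split of reads among them is uncertain. Klri2 rose by 0.49 (SE 0.06) and Klri1 fell by 0.67 (SE 0.13), with adjusted p = 0.000115 and 0.00279. Both encode partners of the receptor chain KLRE1. Of these, Klrc3 and Klrc1 held their calls without ILC1-marker cells.

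Among the NKR-P1 receptors, whose ligands are Clec2 proteins, 2 of 4 genes tested were higher and 1 lower. The lower one was Klrb1b, with 229, 199.7 and 219.6 CPM in Klra8-positive and 425, 377 and 380.0 CPM in Klra8-negative cells. Its log2 fold of -0.87 (SE 0.06, adjusted p = 2.04e-07) was -0.58 (SE 0.07, adjusted p = 0.000743) without ILC1-marker cells, and the classes did not overlap. Klrb1 and Klrb1a rose by 0.82 (SE 0.17) and 0.25 (SE 0.06), with adjusted p = 0.00736 and 0.00922, and neither call held without ILC1-marker cells.

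Cd226, the gene of the activating adhesion receptor DNAM-1, was lower with Klra8. It stood at 75.1, 93.5 and 126 CPM in Klra8-positive and at 228, 274 and 300.3 CPM in Klra8-negative cells, 2.76-fold lower (log2 fold -1.46, SE 0.07, adjusted p = 4.40e-09). Without ILC1-marker cells the log2 fold was -0.95 (SE 0.09, adjusted p = 0.000117). Its list of other NK receptors held 3 genes that rose and 8 that fell of 17 tested, with a median of -0.06. The inhibitory receptor genes Havcr2 (TIM-3), Lag3 and Cd200r1 fell by 1.45, 1.55 and 1.88 on the log2 scale but all at levels under 20 CPM, and of these Havcr2 alone held its call without ILC1-marker cells.

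**Figure D3:**
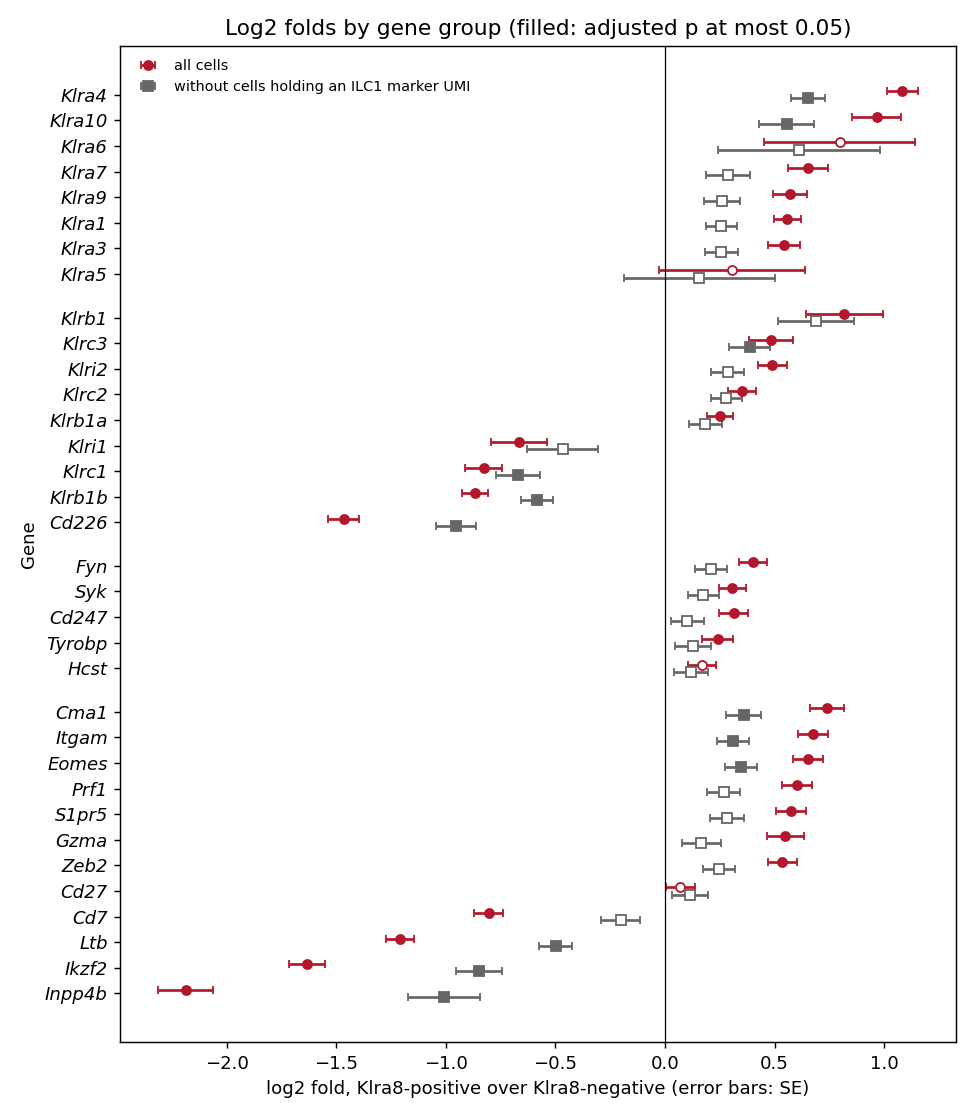
Log2 folds of Klra8-positive over Klra8-negative cells (x axis, error bars SE) for genes in 4 groups (y axis), with all cells (red circles) and without cells holding an ILC1 marker UMI (grey squares), filled where the adjusted p is at most 0.05. Grey squares lie nearer 0 than red circles for every gene shown except Cd27, and Klra4, Klra10, Klrc1, Klrb1b and Cd226 stay filled in both.

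Of the adaptors and proximal signalling genes, 6 of 22 tested were higher and none lower, with a median log2 fold of 0.14, and none was called without ILC1-marker cells. Tyrobp, the adaptor DAP12 through which Ly49H signals, had 2829.9, 2893 and 2831 CPM in Klra8-positive and 2512, 2575 and 2170.2 CPM in Klra8-negative cells, a log2 fold of 0.24 (SE 0.07, adjusted p = 0.0327). Hcst, the adaptor DAP10, had 722, 706 and 754 CPM in Klra8-positive and 687, 637 and 619.9 CPM in Klra8-negative cells, a log2 fold of 0.17 (SE 0.06) that did not pass (adjusted p = 0.0983). Both adaptors were thus abundant in both classes, and the Tyrobp call was lost when tag 1 or tag 2 was left out. The kinase genes Fyn and Syk rose by 0.40 (SE 0.06, adjusted p = 0.000607) and 0.31 (SE 0.06, adjusted p = 0.00436), the signalling chain gene Cd247 by 0.31 (SE 0.07, adjusted p = 0.00463) and the adaptor gene Lat2 by 0.36 (SE 0.06, adjusted p = 0.00171).

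NK cells mature from a CD27-bearing to a CD11b-bearing state, and CD11b is encoded by Itgam. Of 15 genes of mature NK cells, 12 were higher and 1 lower, with a median log2 fold of 0.41, and of 16 genes of immature NK cells, 1 was higher and 10 lower, with a median of -0.50. Without ILC1-marker cells the counts were 3 higher and 1 lower of 15, and 2 higher and 3 lower of 15. Il7r, a marker by which those cells were removed, is also on the immature list. That set therefore cannot tell ILC1-like cells from immature NK cells as the source of the lost calls. Itgam stood at 219.9, 219 and 227 CPM in Klra8-positive and 145, 149.9 and 122 CPM in Klra8-negative cells, a log2 fold of 0.68 (SE 0.07, adjusted p = 1.24e-05) and of 0.31 (SE 0.07, adjusted p = 0.0463) without ILC1-marker cells. Cd27 had 102, 103 and 99.2 CPM in Klra8-positive and 103, 99.5 and 88.2 CPM in Klra8-negative cells and a log2 fold of 0.07 (SE 0.07, adjusted p = 0.537), with overlapping classes.

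Cells with Itgam and no Cd27 UMI made up 34.2%, 34.8% and 35.8% of Klra8-positive cells, against 27.8%, 26.5% and 24.2% of Klra8-negative cells, a difference of 8.78 percentage points (SD 2.6). Without ILC1-marker cells the difference was 2.93 points (SD 2.1). Cells with Cd27 alone made up 13.1% ± 0.2 of Klra8-positive and 15.9% ± 0.4 of Klra8-negative cells. Both genes were seen in 6.08% ± 0.50 of Klra8-positive and 4.34% ± 0.39 of Klra8-negative cells. Neither was seen in 45.9% ± 0.7 of Klra8-positive and 53.6% ± 1.8 of Klra8-negative cells. These shares thus also reflect whether any UMI of the 2 genes was seen, and do not by themselves show a shift from Cd27 to Itgam. The exact sign-flip permutation test gave 0.25 for each with all cells, its smallest value.

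Among other genes of mature NK cells, Cma1, which encodes a chymase, rose by 0.74 (SE 0.08, adjusted p = 4.44e-05) and S1pr5, a receptor used for leaving lymphoid tissue, by 0.58 (SE 0.07, adjusted p = 4.80e-05). The transcription factor genes Zeb2 and Eomes, both needed for NK cell maturation, rose as well, Eomes being the member of the immature list that was higher. Their log2 folds were 0.54 (SE 0.07, adjusted p = 8.65e-05) for Zeb2 and 0.65 (SE 0.07, adjusted p = 1.81e-05) for Eomes. Of these Cma1 and Eomes held their calls without ILC1-marker cells. Klrg1, a late inhibitory receptor, had a log2 fold of 0.27 (SE 0.07, adjusted p = 0.0133) that turned to -0.08 (adjusted p = 0.673) without ILC1-marker cells. Its sums overlapped between the classes. After thinning, a Klrg1 UMI was found in 18.1% ± 2.2 of Klra8-positive and 17.7% ± 1.3 of Klra8-negative cells, and the share was higher in 1 of 3 tags. S100a4 was the member of the mature list that fell, with 53.7, 50.5 and 71.1 CPM in Klra8-positive and 165, 244 and 173 CPM in Klra8-negative cells. Its log2 fold of -1.74 (SE 0.24) was a call at the threshold (adjusted p = 0.04997) that was lost when tag 1 or tag 3 was left out. Without ILC1-marker cells S100a4 stayed called, at -0.61 (SE 0.11, adjusted p = 0.0195).

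All 10 genes of the ILC1 list were lower in Klra8-positive cells, with a median log2 fold of -1.95. Il7r, the interleukin 7 receptor gene, stood at 26.1, 21.3 and 37.8 CPM in Klra8-positive and 181, 169 and 221 CPM in Klra8-negative cells, a log2 fold of -2.77 (SE 0.08, adjusted p = 1.13e-11). Tmem176b and Tmem176a, membrane proteins common in innate lymphoid cells, fell by 2.60 (SE 0.10) and 2.58 (SE 0.11) on that scale, with adjusted p = 3.92e-10 and 8.79e-10. Ikzf2, which encodes the transcription factor Helios, fell by 1.63 (SE 0.08, adjusted p = 5.11e-09), and by 0.85 (SE 0.10, adjusted p = 0.000699) without cells that held the 5 markers. Inpp4b, a lipid phosphatase gene, fell by 2.19 (SE 0.13) and by 1.01 (SE 0.17), with adjusted p = 9.49e-06 and 0.00535.

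Genes of the immature list fell alongside. Ltb, which encodes lymphotoxin beta, had 111, 118 and 137 CPM in Klra8-positive and 268, 291 and 285 CPM in Klra8-negative cells, a log2 fold of -1.21 (SE 0.06, adjusted p = 6.91e-09) and of -0.50 (SE 0.08, adjusted p = 0.00361) without ILC1-marker cells. Cd7, an early lymphocyte surface protein gene, fell by 0.81 (SE 0.07, adjusted p = 1.32e-06), and the chemokine gene Xcl1 by 0.82 (SE 0.10, adjusted p = 0.00192). Their log2 folds were -0.20 (adjusted p = 0.307) and -0.21 (adjusted p = 0.757) without ILC1-marker cells.

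Of 22 cytotoxic granule genes, 10 were higher and 3 lower, with a median log2 fold of 0.20. Prf1, which encodes perforin, had 873, 841 and 783 CPM in Klra8-positive and 620.1, 584 and 454 CPM in Klra8-negative cells, a log2 fold of 0.60 (SE 0.07, adjusted p = 3.55e-05). Granzyme A (Gzma), added after its value was seen, had a log2 fold of 0.55 (SE 0.08, adjusted p = 0.000427). Gzmc, Tnfsf10 (the death ligand TRAIL) and Srgn, the proteoglycan serglycin of the granules, were lower, with Gzmc at under 8 CPM in every sum. Without ILC1-marker cells 1 of 21 was higher and none lower, and Prf1 and Gzma had log2 folds of 0.27 and 0.16 with adjusted p = 0.0963 and 0.395. Of 11 cytokine and chemokine genes, 1 was higher (Ccl5, log2 fold 0.29, SE 0.08, adjusted p = 0.0241) and 3 lower, among them Tnf, with 4.23, 5.21 and 10.7 CPM in Klra8-positive and 24.7, 23.9 and 20.8 CPM in Klra8-negative cells.

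By the naming rule, which took the 12 genes with the largest folds each way among those called in all tags at a mean of at least 20 CPM, the higher genes after Klra4 were St5, Cdh22, Cmya5, Klra10, Khdc1a, Ndnf, Scimp, D5Ertd615e, Zfhx3, Rac3 and Eya1, with log2 folds between 0.85 and 1.08. St5, a regulator of Rab GTPases, had 25.9, 31.9 and 29.3 CPM in Klra8-positive and 14.1, 16.7 and 11.05 CPM in Klra8-negative cells (log2 fold 1.07, SE 0.13, adjusted p = 5.22e-05). Cdh22, a cadherin gene, had 28.2, 26.3 and 29.3 CPM in Klra8-positive and 15.9, 12.03 and 12.7 CPM in Klra8-negative cells (1.05, SE 0.13, adjusted p = 4.68e-05). Zfhx3, a zinc finger homeobox factor, had 109, 108 and 109.7 CPM in Klra8-positive and 56.9, 62.2 and 60.1 CPM in Klra8-negative cells (0.86, SE 0.07, adjusted p = 1.03e-06).

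None of these genes overlapped between the classes, which their choice by fold, adjusted p and direction favours. Over all 11787 genes tested, 13.2% were higher and 15.7% lower without overlap. Of the 12 genes, 11 held their calls without ILC1-marker cells, with Cmya5 the exception (0.63, SE 0.17, adjusted p = 0.0811). Eya1, a transcriptional cofactor and phosphatase, kept a log2 fold of 0.62 (SE 0.08, adjusted p = 0.000699), against 0.85 (SE 0.06) with all cells. Khdc1a is a close copy of Khdc1b and Khdc1c, so its counts are uncertain. Slc24a2, an ion exchanger gene below the rule's level and picked after its values were seen, had 7.61, 15.3 and 5.25 CPM in Klra8-positive and 0.922, 1.38 and 0.906 CPM in Klra8-negative cells, with a log2 fold of 3.10 (SE 0.30, adjusted p = 9.17e-06) and 2.94 (SE 0.37, adjusted p = 0.000743) without ILC1-marker cells. Its Klra8-positive values varied between tags, with tag 2 the highest, and stood above all Klra8-negative values.

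The 12 lower genes were Tcrg-C4, Il7r, Tmem176b, Tmem176a, Ifitm3, Ifitm2, Gpr183, Ramp1, Inpp4b, Plac8, Wdfy4 and H2-Ab1, with log2 folds between -2.84 and -1.93. Tcrg-C4, a T cell receptor gamma constant segment, had 4.09, 6.41 and 9.48 CPM in Klra8-positive and 48.6, 51.4 and 39.8 CPM in Klra8-negative cells (log2 fold -2.84, SE 0.26, adjusted p = 0.00222). The MHC class II gene H2-Ab1, a dendritic cell and B cell gene, had 59.2, 58.9 and 62.1 CPM in Klra8-positive and 323, 167 and 222 CPM in Klra8-negative cells (-1.93, SE 0.25, adjusted p = 0.0486), a call that was lost without tag 3. Without ILC1-marker cells, where Il7r, Tmem176a and Tmem176b are 0 by construction, Inpp4b held its call at a smaller log2 fold of -1.01, and the other 8 genes did not pass. Of these, Ifitm3, Wdfy4, Ifitm2, Plac8, Ramp1 and H2-Ab1 kept log2 folds of -2.67, -2.32, -2.22, -1.84, -1.68 and -1.70, with SEs between 0.33 and 1.14, while Tcrg-C4 and Gpr183 had -1.29 and -0.82. Without the other-lineage cells, which were not chosen by H2-Ab1, the log2 folds of Ifitm2 and Wdfy4 were 0.25 and 0.01, and that of Plac8 was -0.28, none called (adjusted p = 0.642, 0.991 and 0.322).

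Cell cycle genes were lower: of 22 tested, 14 were called lower and none higher, with a median log2 fold of -1.08, and 6 were called without ILC1-marker cells, with a median of -1.09. Ccna2, which encodes cyclin A2, had 4.51, 3.80 and 3.22 CPM in Klra8-positive and 8.99, 10.8 and 16.1 CPM in Klra8-negative cells (log2 fold -1.60, SE 0.24, adjusted p = 0.000472). The share of cells with an Mki67 or Top2a UMI, unthinned, was 8.10%, 10.4% and 7.997% in Klra8-positive and 9.84%, 11.8% and 11.5% in Klra8-negative cells. Klra8-negative cells were the deeper ones, and without the deepest 10% of cells the shares were 6.75% ± 1.18 in Klra8-positive and 6.83% ± 0.50 in Klra8-negative cells. Without cells holding an Mki67 or Top2a UMI, the log2 folds of Cdk1 and Rrm2 were 0.32 and 0.04. That set was chosen by cell cycle transcripts, so it cannot test these genes. Without the deepest 10% of cells the log2 fold of Cdk1 was 0.10, so its direction turned there too.

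Of 20 interferon-stimulated genes, none was higher and 7 were lower, with a median of -0.07, among them Ifi27l2a at 2.68, 6.84 and 5.93 CPM in Klra8-positive and 12.9, 15.8 and 18.8 CPM in Klra8-negative cells (log2 fold -1.62, SE 0.20, adjusted p = 8.04e-05). Of 24 cytokine receptor and signalling genes, 6 were higher and 4 lower. Socs2, a feedback inhibitor of cytokine signalling, had 3.81, 6.52 and 5.76 CPM in Klra8-positive and 22.6, 19.8 and 21.01 CPM in Klra8-negative cells, a log2 fold of -1.96 (SE 0.19, adjusted p = 9.17e-06) that was -2.15 (SE 0.27, adjusted p = 0.000743) without ILC1-marker cells. Of 22 immediate early genes, 2 were higher and 6 lower. Without ILC1-marker cells, none was higher in these 3 lists, and 2 of 18 interferon-stimulated, 1 of 21 cytokine receptor and 1 of 20 immediate early genes were lower. Of 83 cytoplasmic ribosomal protein genes, none was higher and 24 lower, with a median of -0.18, while median ribosomal shares of UMIs were 16.3% in Klra8-positive and 17.6% in Klra8-negative cells. None of 83 was called without ILC1-marker cells, at the same median of -0.18.

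Of 19 genes tied to memory-like or virus-responding NK cells, 7 were higher and 2 lower, with a median of 0.12, and 1 was called, lower, without ILC1-marker cells. Cd226 and Klf4 were the lower ones, and Prdm1, encoding the factor Blimp1, and Irf8, a factor for NK cell responses to virus, were higher by 0.46 (SE 0.08, adjusted p = 0.00166) and 0.40 (SE 0.08, adjusted p = 0.00468). The classes overlapped for Irf8, Prdm1 and Klf4, although every tag had the same direction. Of 29 transcription factor genes, 8 were higher and 4 lower, of 22 trafficking and integrin genes 9 and 4, of 12 MHC class I genes 0 and 2, and of 13 mitochondrially encoded genes 0 and 0. Without ILC1-marker cells the counts were 2 higher and 1 lower of 29 transcription factor genes, 1 and 0 of 20 trafficking genes, and 0 and 0 of 12 MHC class I genes. Kcnj8, an ATP-sensitive potassium channel gene, had 48.8, 38.2 and 43.0 CPM in Klra8-positive and 38.7, 35.4 and 35.7 CPM in Klra8-negative cells, a log2 fold of 0.24 (SE 0.09) that did not pass (adjusted p = 0.0887).

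The differences were graded over the number of Klra8 UMIs per cell. In cells with 0, 1, 2 to 3, 4 to 7 and at least 8 Klra8 UMIs of 2500 (2733, 779, 1113, 1916 and 1409 cells), Klra4 averaged 865, 1177, 1607, 1903 and 1950.2 CPM over the 3 tags. Klrc1 averaged 309.7, 266, 208, 171 and 156 CPM, Klrb1b 394, 319, 241, 212 and 197.5 CPM, and Cd226 268, 160.3, 127, 99.7 and 66.4 CPM. By these means, cells with 1 UMI lay between the classes for all of these genes, and Cd226 was lower at each step within the Klra8-positive cells. In tag 3, however, Klrc1 stood at 335 CPM with 1 Klra8 UMI and at 327 CPM with 0. Exactly 1 Klra8 UMI was also seen in 7.73% of B cells, so the cells with 1 UMI may hold background. Cd27 had no such order, at 96.8, 95.3, 113, 100.01 and 91.8 CPM. The steps are set by Klra8 itself, so these levels are a description.

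In cells without ILC1 markers the same steps gave 1199.5, 1364, 1742, 1965 and 1978 CPM of Klra4 and 160.2, 118, 104, 91.3 and 57.6 CPM of Cd226. Itgam stood at 185, 188, 191, 236 and 265 CPM there, so the first 3 steps were close and the higher levels lay within the Klra8-positive cells. Il7r, whose cells had been removed from that set, was lower at each step of all gated cells, at 190.5, 87.4, 43.1, 24.5 and 19.3 CPM.

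**Figure D4:**
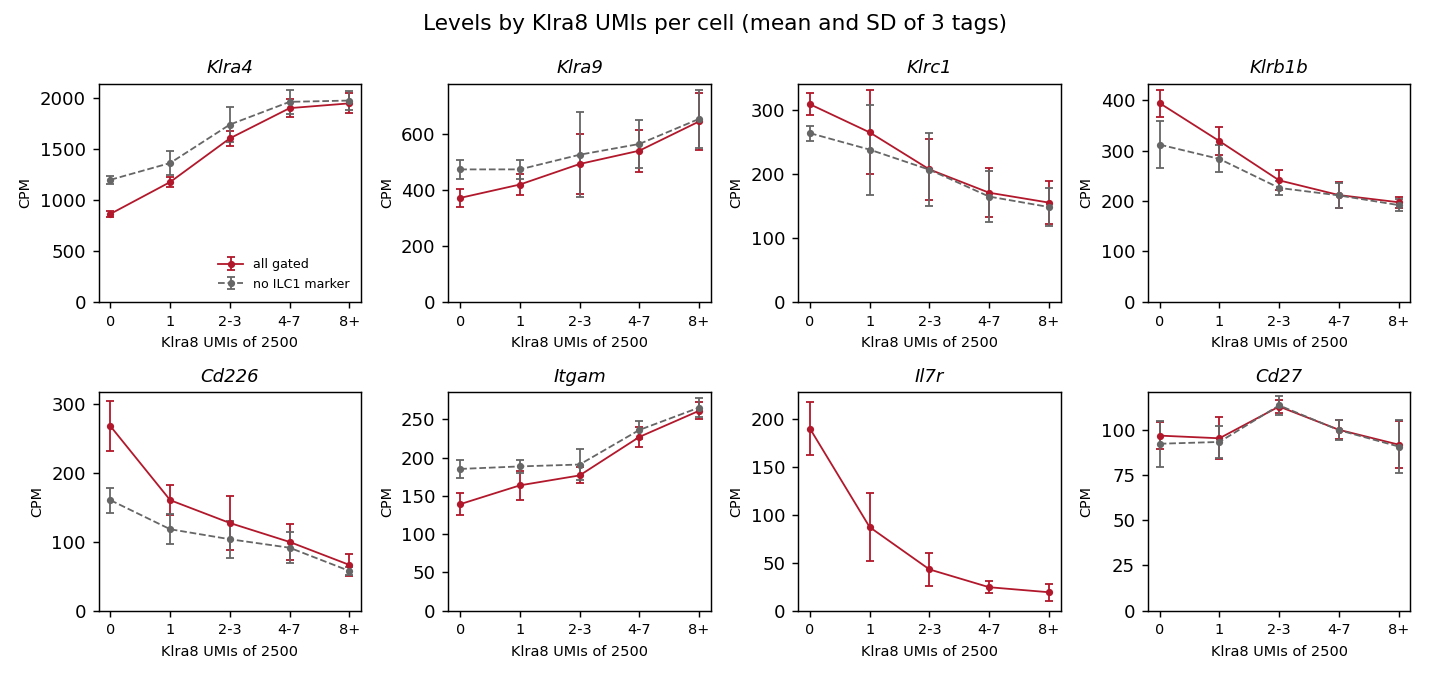
Mean level in CPM (y axis, error bars SD of 3 tags) of 8 genes by the number of Klra8 UMIs per cell (x axis), in all gated NK cells (red) and in cells without an ILC1 marker UMI (grey, dashed, not drawn for Il7r). Klra4, Klra9 and Itgam were higher, and Klrc1, Klrb1b, Cd226 and Il7r lower, in cells with at least 8 Klra8 UMIs than in cells with 0, while Cd27 stayed between 91.8 and 113 CPM in all gated cells.

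To set cells chosen by Ly49H against cells chosen by the other activating Ly49 receptor, 1231 Klra8-only cells (at least 2 Klra8 and 0 Klra4 UMIs) were compared with 961 Klra4-only cells (at least 2 Klra4 and 0 Klra8 UMIs). Fewer genes differed, 35 higher and 100 lower in Klra8-only cells, or 0.37% and 1.06% of 9462 tested, of which 61 of the lower were ribosomal protein genes with a list median of -0.12. Without the tag block 11 genes were called, and without tag 2 41. This comparison shares Klra8-positive and Klra8-negative cells with the first. The same rule named Klrb1b, Klra9, Gna15, Cd226, Klrc1 and St6galnac3 as higher, and Plac8, Lockd, Lig1, Dgkh, Frmd4b and Klra1 as lower.

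Klrb1b had 388, 345 and 378 CPM in Klra8-only and 195.8, 160.4 and 179 CPM in Klra4-only cells, a log2 fold of 1.04 (SE 0.06, adjusted p = 9.52e-12). Cd226 had 119, 155 and 194 CPM in Klra8-only and 63.9, 90.1 and 118 CPM in Klra4-only cells, a log2 fold of 0.77 (SE 0.08, adjusted p = 1.84e-06), and Klrc1 271, 231 and 348 CPM in Klra8-only and 156, 153 and 198 CPM in Klra4-only cells, a log2 fold of 0.72 (SE 0.07, adjusted p = 2.36e-07). These 3 genes were higher in Klra8-only than in Klra4-only cells, whereas all 3 were lower in Klra8-positive than in Klra8-negative cells. Klrg1 was also higher, by 0.69 (SE 0.09, adjusted p = 5.89e-05), and Itgam had a log2 fold of 0.12 (SE 0.07, adjusted p = 0.666).

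Among the Ly49 genes, Klra9 had 790.1, 629 and 889.9 CPM in Klra8-only and 492, 342 and 425 CPM in Klra4-only cells, a log2 fold of 0.86 (SE 0.06, adjusted p = 1.45e-06). Klra1 had 133, 123 and 119.6 CPM in Klra8-only and 195.8, 187 and 225 CPM in Klra4-only cells, a log2 fold of -0.70 (SE 0.08, adjusted p = 3.42e-06). Klra3 and Klra7 did not pass, with adjusted p = 0.994 and 0.929 and overlapping classes. Klra9 shares some windows with Klra8, and the part of shared reads in its counts was not tested.

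Against cells chosen by the inhibitory receptor Ly49G, 1922 Klra8-only cells (at least 2 Klra8 and 0 Klra7 UMIs) were set beside 763 Klra7-only cells. Of 9768 genes tested 39 were higher and 60 lower in Klra8-only cells, or 0.399% and 0.614%. Without the tag block 17 genes were called, and leaving out tag 1, 2 or 3 gave 63, 150 and 39. The rule named St5, Adgrl4, Dennd5a, Sox5, Klra9 and Arhgap6 as higher, and Cd3d, Cd3g, Inpp4b, Il7r, Slco3a1 and Slamf6 as lower. St5 had 28.9, 35.9 and 35.0 CPM in Klra8-only and 14.3, 18.8 and 12.7 CPM in Klra7-only cells (log2 fold 1.09, SE 0.19, adjusted p = 0.00116).

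Cd3d and Cd3g, genes of the T cell receptor complex, had log2 folds of -1.86 (SE 0.19, adjusted p = 1.78e-05) and -1.84 (SE 0.23, adjusted p = 4.10e-05). Cd3d stood at 15.4, 23.02 and 18.7 CPM in Klra8-only and 77.0, 51.6 and 87.5 CPM in Klra7-only cells, and Trac was 0 in both by the gate. Cd7 fell by 0.64 (SE 0.05, adjusted p = 4.87e-09), Ltb by 0.69 (SE 0.08, adjusted p = 2.20e-06) and Cd226 by 0.59 (SE 0.08, adjusted p = 4.31e-05). The immature list had 0 genes higher and 7 lower of 16, with a median of -0.41, and the mature list 5 higher and 0 lower of 15, with a median of 0.27.

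Of the other Ly49 genes, Klra9, Klra3 and Klra4 were higher in Klra8-only than in Klra7-only cells, by 0.78 (SE 0.05, adjusted p = 6.21e-12), 0.67 (SE 0.06, adjusted p = 6.69e-08) and 0.46 (SE 0.04, adjusted p = 1.19e-09), and Klra1 was lower by 0.31 (SE 0.08, adjusted p = 0.0396). Klra4 had 1696, 1773 and 1981 CPM in Klra8-only and 1293, 1195 and 1460.1 CPM in Klra7-only cells. Klrc1 fell by 0.32 (SE 0.07, adjusted p = 0.0126) with overlapping classes, and Klrb1b had a log2 fold of -0.13 (SE 0.07, adjusted p = 0.518). Both comparisons use Klra8-only cells, many of which are the same cells, and the difference between their folds was not tested.

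**Figure D5:**
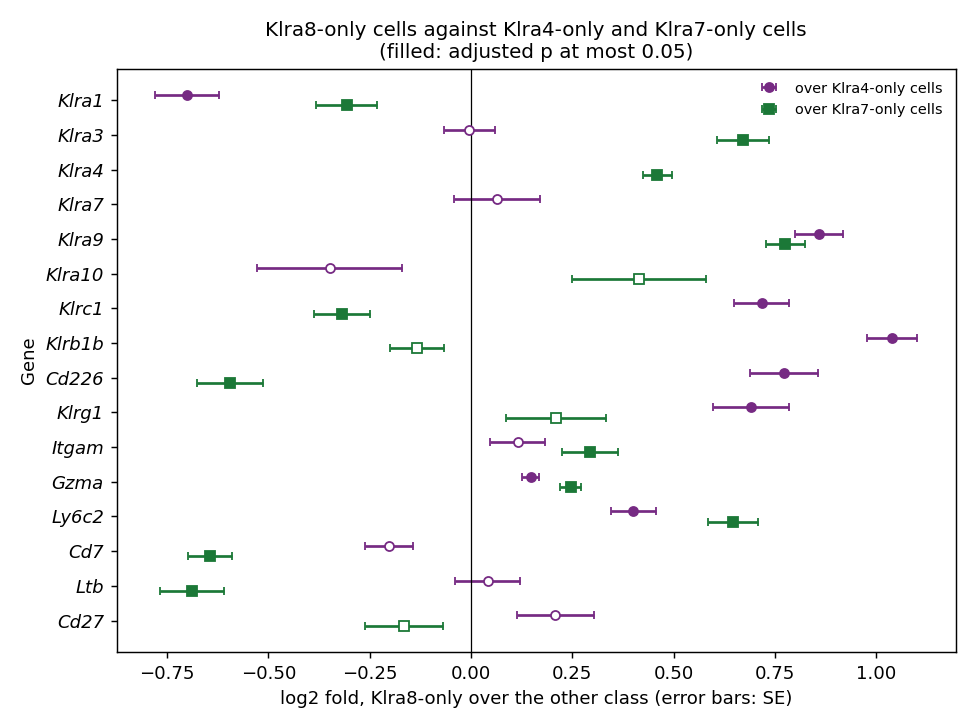
Log2 folds (x axis, error bars SE) of Klra8-only cells over Klra4-only cells (purple circles) and over Klra7-only cells (green squares) for 16 genes (y axis), filled where the adjusted p is at most 0.05. Klrc1 and Cd226 lie right of 0 against Klra4-only cells and left of 0 against Klra7-only cells, while Klra9 lies right of 0 in both.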

How the data were processed

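The deposited matrix held raw UMI counts per gene and barcode, written by Cell Ranger 7.0.0 according to the file headers. Seurat and the build mm10 are named in the submitters' processing notes. Neither the annotation nor any counting of introns is stated in what was used here. Everything after the counts was computed here. Tag cutoffs were 140, 196 and 138 counts for tags 1, 2 and 3. Of 15742 barcodes within the gene and mitochondrial limits, 11692 had 1 tag, and 1028 gated cells under 2500 UMIs were left out. Barcodes with several tags were removed, doublets of 1 tag remain, and no doublet caller was run. Cells were thinned with seed 1 to set the classes, and unthinned counts were summed per class and tag. The sums held 5905965 to 9208491 UMIs in Klra8-positive and 4337973 to 5816992 in Klra8-negative cells.

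The sums were fitted with edgeR 4.0.16 (robust quasi-likelihood, TMM, filterByExpr) in R 4.3.3, with the tag as block, since both sums of a tag hold cells of the same mice. Benjamini-Hochberg adjustment ran over all genes fitted, with a threshold of 0.05, and the genes used by the gate and class were then left out of the counts. The SE is the log2 fold divided by the root of the F statistic. DESeq2 1.42.0 was an alternative. CPM are sums divided by their total UMIs. The fit was checked on simulated data. Shares used an exact sign-flip permutation test over tags. Promoters were aligned with Biopython 1.88, and Python 3.11.15 with numpy 2.4.6, scipy 1.17.1, pandas 2.3.3 and matplotlib 3.10.9 was used.

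Named genes were the 12 with the largest fold each way (6 in the other comparisons) among those past the threshold, of the same direction in 3 of 3 tags and at 20 CPM or more, without predicted genes, then all Ly49 genes, up to 4 per list, and a fixed set with Kcnj8, Tyrobp, Hcst, Cd27, Itgam and Klrg1. Others, such as Slc24a2, Gzma and Srgn, were picked after their values were seen. The members and gene lists were chosen with earlier results of these data known.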

Additional observations from a re-analysis of the deposited data

How the results depend on the processing

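The counts of genes higher and lower with Klra8 (690 and 1045) moved by over 1.5 times under several settings, and the cause was not tested. They were 191 and 441 with DESeq2, 272 and 609 with no replicate block (tags unpaired), 38 and 121 in Itgam-positive cells, 386 and 602 on thinned counts, 350 and 635 on left-over UMIs, 1096 and 1590 with no low count filter, 1242 and 1917 with several-tag barcodes kept, and 453 and 653 without the deepest 10% of cells. Settings chosen after seeing the data gave 62 and 136 without ILC1-marker cells, 445 higher genes in cells without a Klra4 UMI, 383 higher genes in cells without a Klrc1 UMI, and 662 lower genes without other-lineage cells. Leaving out 1 tag gave 373 to 726 higher and 892 to 1430 lower genes. The 135 genes between Klra8-only and Klra4-only cells were 31 with DESeq2, 11 with no replicate block, 23 on thinned counts and 41 to 188 with 1 tag left out. The 99 genes against Klra7-only cells were 16, 17 and 64 in the same settings and 39 to 150. The Klra4 co-detection difference of 30.2 points was 27.5 with Klra8 at 1 UMI or more, 20.8 without ILC1-marker cells and 29.1 to 30.9 with 1 tag left out. The Itgam-only difference of 8.78 points was 2.93 without ILC1-marker cells and 7.39 to 9.95 with 1 tag left out. Log2 folds turned for Cdk1 (0.32 without Mki67 or Top2a cells and 0.10 without the deepest 10%), Rrm2 (0.036 without Mki67 or Top2a cells), Klrg1 (-0.20 in Itgam-positive cells and -0.079 without ILC1-marker cells), Tcf7 (0.017 without ILC1-marker cells), and Ifitm2 and Wdfy4 (0.25 and 0.013 without other-lineage cells). Of named genes that passed, 77 of 97 held their calls with no replicate block, 81 of 97 with DESeq2 and 29 of 87 without ILC1-marker cells. Depth limits Klra8 itself, since a cell with 0 of 2500 UMIs may still carry the transcript.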
